A study of Homo sapiens with 2 samples.

Results

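To examine where NUDT21 lay on the genes that build and load HLA class I molecules, CUT&Tag peaks were collected at 9 genes, namely HLA-B, HLA-C, HLA-E and HLA-F, B2M, TAP1, TAP2, TAPBP and NLRC5. They were chosen by name for their role in antigen presentation, and the rule uses no measured value, although earlier results of these data were known when they were chosen. They were 9 of 20033 protein-coding genes of GENCODE release 44 on the main chromosomes. NUDT21 was profiled with 1 antibody in 2 biological replicates of J.gamma1, a human leukemia line of T-cell origin (T-ALL), to which the labels assign no knockdown or drug. Both formed 1 group, in which only 1 cell line was sampled and no control sample was analysed here. In CUT&Tag an antibody tethers a transposase to chromatin, so a peak marks where DNA near the protein was cut, and it measures neither transcription nor protein level.

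HLA class I molecules display peptides from inside the cell to CD8+ T cells. A polymorphic heavy chain pairs with the invariant light chain made by B2M, and the TAP transporter, formed by TAP1 and TAP2, pumps peptides into the endoplasmic reticulum, where tapasin, made by TAPBP, holds the empty molecule beside it. NLRC5 is the transactivator that assembles on class I promoters, and interferon-gamma raises most of the genes examined here together. NUDT21 is a subunit of cleavage factor I, which binds UGUA in pre-mRNA and guides the choice of polyadenylation site.

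A peak was assigned to a gene's promoter window when it came, edge to edge, no farther than 3000 bp from any annotated start of the gene. By this rule 5 of the 9 genes, HLA-B, HLA-C, HLA-F, TAPBP and NLRC5, had a peak in both replicates, beside 57.0% of all protein-coding genes (95% Wilson interval 56.3% to 57.7%, counting error only). In replicate 1, 8 of the 9 had one, beside 69.8% of all genes, and the exception was TAP2. In replicate 2, 5 of the 9 had one, beside 57.9% of all genes. HLA-E, B2M and TAP1 had a peak in replicate 1 and none in replicate 2 on their own chromosome. Of the genes with a promoter peak in replicate 1, 5 of the 8 class I genes and 81.7% of all genes also had one in replicate 2. The major histocompatibility complex (MHC), taken here as chr6 from 28 to 34 Mb, holds 7 of the 9 genes. There 4 of these 7 had a promoter peak in both replicates, beside 39.2% of the 204 protein-coding genes of the region. The share of replicate 1 genes found again in replicate 2 was 61.5% in that region.

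**Figure D1:**
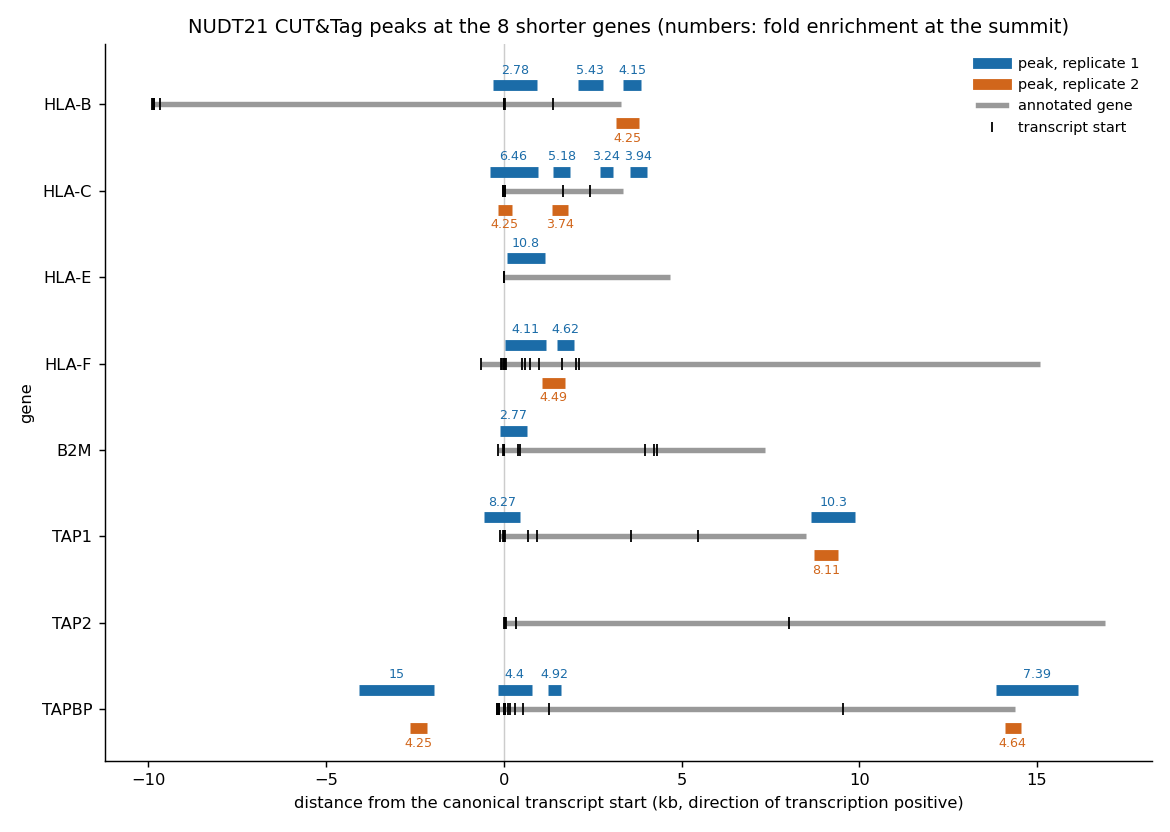
NUDT21 peaks at the 8 genes other than NLRC5, drawn as bars by distance from the canonical transcript start in kb (replicate 1 above the gene, replicate 2 below), with the fold enrichment at the summit printed beside each bar, the annotated gene as a grey line and its transcript starts as ticks. Replicate 1 has a peak at 7 of the genes and replicate 2 at HLA-B, HLA-C, HLA-F, TAP1 and TAPBP, and the TAP1 peaks seen in both lie past the gene's end.

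The lists were called separately, with 92722 peaks on the main chromosomes in replicate 1 and 66671 in replicate 2. Read totals were not used, and the absolute depth is unknown. From the fold and p of each peak, the fragments stacked at the summit and the control level under it were recovered for 99.98% of replicate 1 peaks and nearly all of replicate 2. The median summit held 30 fragments in replicate 1 and 20 in replicate 2. The control level had a floor, its lowest value anywhere in the list, of 2.58 fragments in replicate 1 and 1.59 in replicate 2. The fewest fragments that made a peak over the floor were 11 and 8. A fold percentile below is the share of main-chromosome peaks of the same list with a lower fold.

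The promoters were examined first, since class I genes are known for shared elements just upstream of their starts. The 250 bases before the start that RefSeq gives (GRCh38.p14) were listed for 7 of the 9 genes. Shown are the 5 windows that carry CCAAT, those of HLA-B, HLA-C, HLA-F, B2M and TAP1. Replicate 1 peaks covered all or part of 4 of these 5, HLA-F being the exception. TAPBP, covered in part, and TAP2, not covered, lack CCAAT and are not shown. Capitals mark CCAAT, the box bound by NF-Y, GGGATTCCC, a kappa B site of class I promoters, and TTTCNNTTTC, the core of the interferon-stimulated response element, each on either strand. Within a window, matches to TTTCNNTTTC may overlap each other.
HLA-B (chr6:31357180-31357429, minus strand): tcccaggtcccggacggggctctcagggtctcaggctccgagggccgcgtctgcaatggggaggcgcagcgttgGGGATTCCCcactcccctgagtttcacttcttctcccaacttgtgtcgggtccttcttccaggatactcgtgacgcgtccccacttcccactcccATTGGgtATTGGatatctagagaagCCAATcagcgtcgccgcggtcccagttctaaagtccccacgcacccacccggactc
HLA-C (chr6:31272093-31272342, minus strand): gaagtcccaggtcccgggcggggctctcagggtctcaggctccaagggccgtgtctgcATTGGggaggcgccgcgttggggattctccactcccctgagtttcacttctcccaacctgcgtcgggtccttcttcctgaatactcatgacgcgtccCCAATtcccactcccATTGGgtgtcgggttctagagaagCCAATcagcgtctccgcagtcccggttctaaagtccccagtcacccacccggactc
HLA-F (chr6:29723184-29723433, plus strand): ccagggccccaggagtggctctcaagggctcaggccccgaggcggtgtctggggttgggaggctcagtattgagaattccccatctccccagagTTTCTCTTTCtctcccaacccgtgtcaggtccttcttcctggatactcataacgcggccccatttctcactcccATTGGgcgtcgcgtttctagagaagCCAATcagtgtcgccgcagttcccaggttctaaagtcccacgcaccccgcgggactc
B2M (chr15:44711267-44711516, plus strand): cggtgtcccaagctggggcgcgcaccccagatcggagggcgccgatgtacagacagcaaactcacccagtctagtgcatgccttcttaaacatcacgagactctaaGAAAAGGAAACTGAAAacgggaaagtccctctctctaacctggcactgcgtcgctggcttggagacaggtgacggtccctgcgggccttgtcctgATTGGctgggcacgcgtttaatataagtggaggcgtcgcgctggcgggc
TAP1 (chr6:32853705-32853954, minus strand): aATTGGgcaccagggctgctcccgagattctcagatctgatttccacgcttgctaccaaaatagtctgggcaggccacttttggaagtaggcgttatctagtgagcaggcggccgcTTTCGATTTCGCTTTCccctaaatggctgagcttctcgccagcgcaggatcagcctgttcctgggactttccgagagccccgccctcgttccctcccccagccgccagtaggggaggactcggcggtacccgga

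The interferon element core stood in 5 of the 7 windows, those of HLA-F, B2M, TAP1, TAP2 and TAPBP, and in 3.02% of the 35116 RefSeq promoters of the same length. B2M, TAP1 and TAPBP each held 2 overlapping copies. CCAAT stood in 5 of the 7, beside 32.0% of all promoters, and in HLA-B, HLA-C and HLA-F a forward copy began 56 to 57 bases before the start. The kappa B letters stood in HLA-B only, beside 0.362% of all promoters. GGGCGG, an SP1 box, stood in 4 of the 7, beside 42.6% of all. TATAAA stood in TAP2, beside 10.7%. TTCNNNGAA, a STAT site, stood in none, beside 6.57%. TGTA, the DNA form of the UGUA that NUDT21 binds in RNA, stood in B2M and TAP2, beside 53.9% of all promoters. Each of these is a match of letters on either strand and not a measured site. The HLA-B and HLA-C windows were identical in 89.0% of aligned positions, and HLA-F matched them in 80.4% and 78.7%.

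In replicate 1, peaks covered all 250 bases of the HLA-B, HLA-C and TAP1 windows, 175 bases of TAPBP and 112 of B2M, and none of HLA-F or TAP2. In replicate 2, only the HLA-C window was covered, over 168 bases. In replicate 1, the windows under peaks included some with an exact TTTCNNTTTC match (TAP1, TAPBP and B2M) and some with none (HLA-B and HLA-C). HLA-B and HLA-C both hold tttcacttct, a near match that the exact search did not count. Whether the element bears on the peaks was not tested.

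HLA-B encodes one of the classical heavy chains, which present peptides to CD8+ T cells, and lies at chr6:31353872-31367067 on the minus strand. In replicate 1 its canonical start was covered by the peak chr6:31356241-31357487, with a fold of 2.78 from 14 fragments over a control level of 4, at the fold percentile of 13.8. This peak's summit lay in coding exon 3. The stronger HLA-B peaks of replicate 1 lay in the 3′ part of the gene. One at chr6:31354404-31355102 had a fold of 5.43 from 20 fragments, with its summit in coding exon 7, and one at chr6:31353310-31353830 had a fold of 4.15 from 15 fragments, with its summit 204 bp past the gene end. The single replicate 2 peak, chr6:31353367-31354026, had a fold of 4.25 from 10 fragments and its summit 46 bp past the gene end. It touched the replicate 1 peak at the gene end over 464 bp, with summits 158 bp apart. It counts as a promoter peak because an annotated transcript starts 1776 bp from its edge, inside the gene, and no replicate 2 peak lay at the 5′ start. The strongest HLA-B fold was 4.84 ± 0.84 (mean ± SD, n = 2). Its 2 values came from peaks that did not overlap, in exon 7 in replicate 1 and at the gene end in replicate 2.

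HLA-C, the other classical heavy chain examined, which is also read by killer-cell receptors, lies at chr6:31268749-31272130 on the minus strand. Its start was under a peak in both replicates. In replicate 1 that peak was chr6:31271147-31272496, with a fold of 6.46 from 24 fragments, and in replicate 2 it was chr6:31271874-31272260, with a fold of 4.25 from 10 fragments. Their summits lay 3 bp apart, in intron 1, the smallest distance of any pair on chr6 among these genes. A second pair lay around exon 4, at a fold of 5.18 in replicate 1 and 3.74 in replicate 2, with summits 305 bp apart. The remaining HLA-C peaks, in coding exon 7 (fold 3.24) and 443 bp past the gene end (fold 3.94), were called in replicate 1 alone. The strongest HLA-C fold was 5.36 ± 1.57 (mean ± SD, n = 2).

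HLA-E, at chr6:30489509-30494194, a non-classical heavy chain that shows leader peptides of other class I molecules to natural killer cells, had the highest fold of the heavy chains. The peak chr6:30489585-30490655 of replicate 1 rose to 10.8-fold from 41 fragments over the floor, at the fold percentile of 98.1, with its summit in coding exon 3, 797 bp past the start. No peak was called at HLA-E in replicate 2, on chr6 or on any alternate sequence. With no replicate 2 value, this fold has no replicate check.

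HLA-F, a non-classical heavy chain that can reach the surface without peptide, lies at chr6:29722775-29738528. Replicate 1 gave folds of 4.11 (21 fragments, coding exon 2) and 4.62 (23 fragments, coding exon 4). Replicate 2 gave 1 peak, chr6:29724500-29725164, with a fold of 4.49 from 14 fragments and its summit in coding exon 4, 102 bp from the stronger summit of replicate 1. The strongest HLA-F fold, 4.56 ± 0.097 (mean ± SD, n = 2), had the smallest SD among the 5 genes with a promoter peak in both. At HLA-B and NLRC5, however, the values of the replicates came from different peaks. The 250 promoter bases of HLA-F were under no peak in either replicate.

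B2M, the light chain shared by all class I molecules, lies at chr15:44711358-44718851 and not in the MHC. Its replicate 1 peak, chr15:44711405-44712159, had a fold of 2.77, the lowest strongest fold of the 8 genes, at the fold percentile of 12.4. It held 32 fragments over a control level of 10, so its fragment count was close to the list's median while its fold was low. The summit lay in intron 1, and the peak was also within 3000 bp of a start of PATL2. No peak was called in replicate 2 on chr15.

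TAP1, at chr6:32845209-32853816 on the minus strand, had peaks at both of its ends. Upstream, the replicate 1 peak chr6:32853249-32854265 had a fold of 8.27 from 31 fragments over the floor, at the fold percentile of 95.3, with its summit at -334 bp from the canonical start. PSMB9, which encodes an immunoproteasome subunit, starts within 3000 bp of this peak, so the peak cannot be given to TAP1 alone. In replicate 2 no peak was called there on chr6. Past the other end of TAP1, a peak was called in both replicates, with a fold of 10.3 from 39 fragments in replicate 1 (chr6:32843823-32845057) and 8.11 from 20 fragments in replicate 2 (chr6:32844312-32844969). The summits lay 653 and 661 bp past the TAP1 end, 8 bp apart, and their fold percentiles were 97.8 and 95.5. Their edges were 3173 and 3261 bp from the nearest TAP1 start, just outside the promoter window. These peaks also lay within 3000 bp of starts of PSMB8 and PSMB9. Both peaks overlapped the annotated spans of PSMB8 (chr6:32840717-32844679) and PSMB9 (chr6:32844136-32859851), so they cannot be given to the TAP1 end alone. TAP2, the other transporter subunit, at chr6:32821833-32838739, had no peak on chr6 in its window, body or end in either replicate.

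TAPBP, which encodes tapasin and lies at chr6:33299694-33314284 on the minus strand, had the highest fold of all 9 genes, in a peak that counts by its edge alone. The replicate 1 peak chr6:33316057-33318164 had a fold of 14.97 from 57 fragments over the floor, at the fold percentile of 99.4. It lay upstream of TAPBP, with its edge 1773 bp and its summit at -3614 bp from the nearest TAPBP start, and within 3000 bp of starts of DAXX and ZBTB22. The replicate 2 peak inside it, chr6:33316229-33316730, had a fold of 4.25 from 10 fragments, with its summit 1307 bp away. The strongest TAPBP fold was therefore 9.61 ± 7.58 (mean ± SD, n = 2). With peaks assigned by summit, its mean was 4.58, and HLA-E had the highest promoter-window fold. The canonical TAPBP start was under a replicate 1 peak with a fold of 4.40, and a further replicate 1 peak, with a fold of 4.92, had its summit in intron 3. Replicate 2 had neither. At the 3′ end, a peak was called in both replicates, at a fold of 7.39 from 31 fragments and of 4.64 from 11 fragments, with summits 406 and 122 bp past the gene end. RGL2 starts within 3000 bp of this pair as well.

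**Figure D2:**
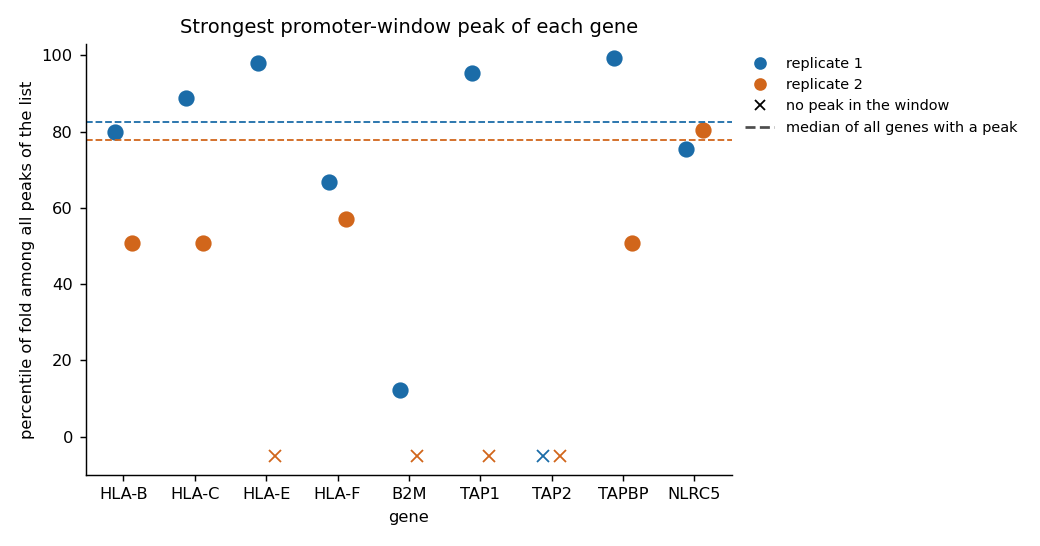
Percentile, among all main-chromosome peaks of the same list, of the fold of each gene's strongest promoter-window peak (points by replicate, crosses where no peak was called); dashed lines mark the medians over every coding gene that had such a peak, 82.4 in replicate 1 and 77.9 in replicate 2. The replicate 1 points run from 12.4 for B2M to 99.4 for TAPBP, while 3 of the 5 replicate 2 points lie at 50.7.

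Across the genes, the median strongest promoter fold was 5.95 in replicate 1 (8 genes) and 4.25 in replicate 2 (5 genes), beside 5.64 and 5.45 over every coding gene that had such a peak. The median fold percentile was 84.5 and 50.7, beside 82.4 and 77.9. HLA-B, HLA-C and TAPBP had the same strongest fold in replicate 2, 4.25, because each summit held 10 fragments over the floor.

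NLRC5, the class I transactivator, differed in layout from the other 8 genes. It spans 94047 bp at chr16:56989485-57083531 with 28 distinct transcript starts, so that much of the gene fell inside the promoter window. It carried 20 promoter-window peaks in replicate 1 and 16 in replicate 2. All 16 of replicate 2 touched a replicate 1 peak, and 15 of the 20 of replicate 1 touched one of replicate 2. The 5′ start was under a peak in both, chr16:56989163-56989903 at a fold of 5.09 from 40 fragments and chr16:56988158-56989904 at a fold of 4.57 from 29 fragments. The strongest replicate 2 peak lay in intron 14, chr16:57036077-57036581, with a fold of 5.64 from 26 fragments, where replicate 1 had a fold of 4.05. The strongest NLRC5 promoter-window fold was 5.37 ± 0.39 (mean ± SD, n = 2). Its 2 values came from different peaks, at the 5′ start in replicate 1 and in intron 14 in replicate 2.

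Along NLRC5 the folds were modest and alike. The median of the promoter-window peaks was 3.45 in replicate 1, with a range of 2.13 to 5.09, and 3.94 in replicate 2, with a range of 2.31 to 5.64. Both medians were below those of all main-chromosome peaks, 3.95 and 4.23. The highest fold at the gene, 6.93 from 44 fragments, belonged to a replicate 1 peak 979 bp past the gene end, which had no partner in replicate 2. Peaks overlapping the gene numbered 2.34 per 10 kb in replicate 1 and 1.81 in replicate 2, and covered 16.4% and 10.6% of its length. Among the 5292 protein-coding genes of 50000 to 200000 bp, the median was 0.194 and 0.125 peaks per 10 kb, and NLRC5 stood at the percentile of 90.3 and 90.8. Inside and outside the window the nearest cases were replicate 1 peaks with edges 2965 and 3013 bp from a start.

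**Figure D3:**
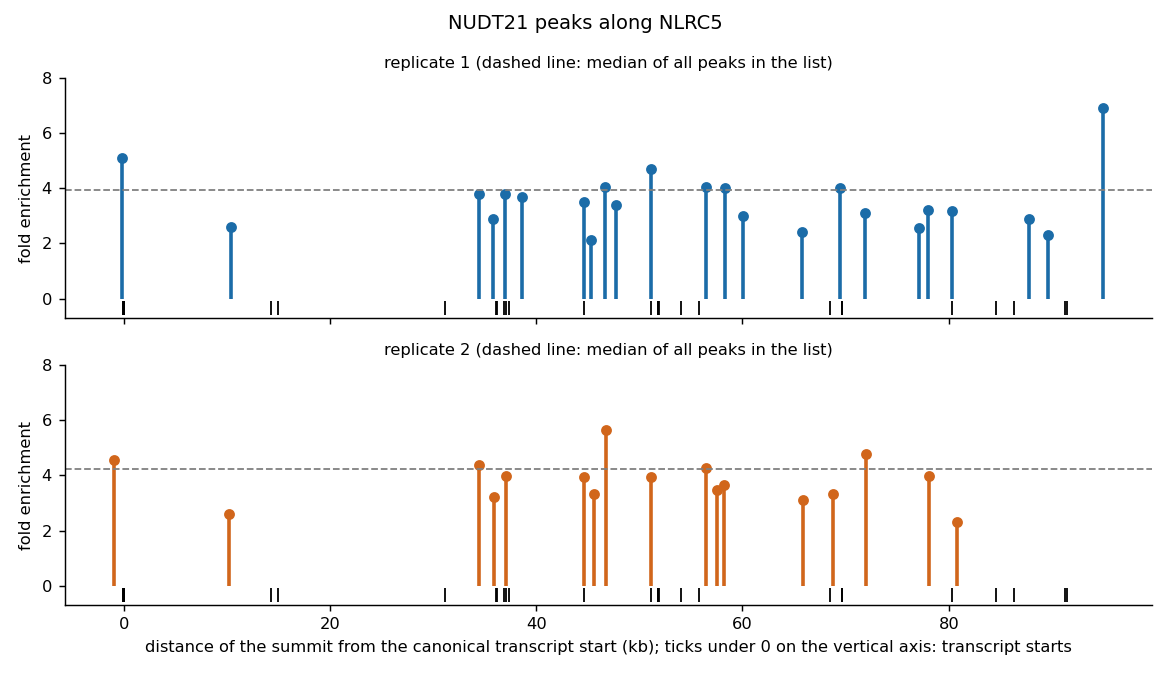
Fold enrichment of each NUDT21 peak at NLRC5 by the distance of its summit from the canonical transcript start in kb, with replicate 1 above and replicate 2 below, transcript starts as ticks and the median fold of the whole list as a dashed line (3.95 and 4.23). The peaks run along the gene in both replicates with most folds under the dashed line, and the highest, 6.93, stands past the gene end in replicate 1.

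Gene bodies and gene ends were then examined, since NUDT21 acts at 3′ ends of transcripts. A peak over the gene body and outside the promoter window was present in both replicates at 2 of the 9 genes, TAPBP and NLRC5, beside 28.6% of all protein-coding genes. For TAPBP this was the peak at its 3′ end. For NLRC5 it lay in intron 1, with folds of 2.62 and 2.60 and summits 188 bp apart. A summit within 1000 bp of the gene end was present in both replicates at 3 of the 9 genes, HLA-B, TAP1 and TAPBP, beside 12.9% of all protein-coding genes. Each of these 3 also had an annotated transcript start, its own or that of a neighbour, within 3000 bp of its end. HLA-C, HLA-F, TAP2 and NLRC5 had such a start too. Whether nearby starts bear on the gene-end peaks was not tested. The TAP1 pair overlapped PSMB8 and PSMB9 and also counts as a promoter-window peak of both, so it cannot be given to the TAP1 end alone. In replicate 1, HLA-C and NLRC5 had a summit within 1000 bp of the gene end as well.

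The polyadenylation signal AATAAA stood within the last 100 bases of the canonical transcript in 8 of the 9 genes, with TAP2 as the exception, beside 65.8% of all protein-coding genes. The sites of the 4 chr6 genes with a gene-end peak follow, each with 30 bases of the hg38 genome read in the direction of transcription and the signal in capitals.
HLA-B (chr6:31353880-31353909, minus strand): tttgagagagcaAATAAAgacctgagaacc
HLA-C (chr6:31268757-31268786, minus strand): gttgagagagcaAATAAAgacctgagaacc
TAP1 (chr6:32845211-32845240, minus strand): cttgatatttatAATAAAattggtgttttg
TAPBP (chr6:33299704-33299733, minus strand): taatcgtgtaggAATAAAgctgtattccag
The TAPBP site was under a peak in both replicates, and the HLA-B site in replicate 2. No peak covered the sites of HLA-C or TAP1. The TAP1 end peaks lay downstream of its site, and the HLA-C end peaks of replicate 1 lay on either side of its site. TGTA stood in the last 100 bases of TAP1 (2 copies), TAPBP (2 copies) and TAP2 (1 copy), thus in 3 of the 9 genes, beside 51.9% of all. Of the genes with an end peak in both replicates, TAP1 and TAPBP had these letters and HLA-B did not. HLA-C and NLRC5, with an end peak in replicate 1 alone, lacked them. TAP2 had the letters at its canonical end, which lies inside the annotated gene, and no chr6 peak in its body or at its gene end. HLA-E, HLA-F and B2M had neither letters at the canonical end nor a peak at the gene end. These positions differ at HLA-F (chr6:29727296 and chr6:29738528) and at B2M (chr15:44718145 and chr15:44718851). Whether the letters bear on the peaks was not tested.

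The fragments behind these folds differed between the chr6 genes and NLRC5. Of the peaks at the 7 chr6 genes, 10 of 16 in replicate 1 and 5 of 7 in replicate 2 stood on the floor of the control level (62.5% and 71.4%). Over all main-chromosome peaks this share was 4.94% and 3.26%, and over the MHC region 32.7% and 16.7%. No NLRC5 peak stood on the floor, and its control levels spanned 5 to 14 in replicate 1 and 3.79 to 8.35 in replicate 2. The median summit held 20.5 fragments at the chr6 genes and 36 at NLRC5 in replicate 1, and 10 and 23 in replicate 2. The strong chr6 peaks ranked lower by fragments than by fold. The HLA-E peak was at the percentile of 98.1 by fold and 76.0 by fragments. The TAP1 upstream peak was at 95.3 by fold and 53.1 by fragments, and the HLA-C start peak of replicate 1 at 88.9 and 28.3. In replicate 2, the 10 fragments shared by HLA-B, HLA-C and TAPBP were at the percentile of 0.936, although their fold was at 50.7.

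**Figure D4:**
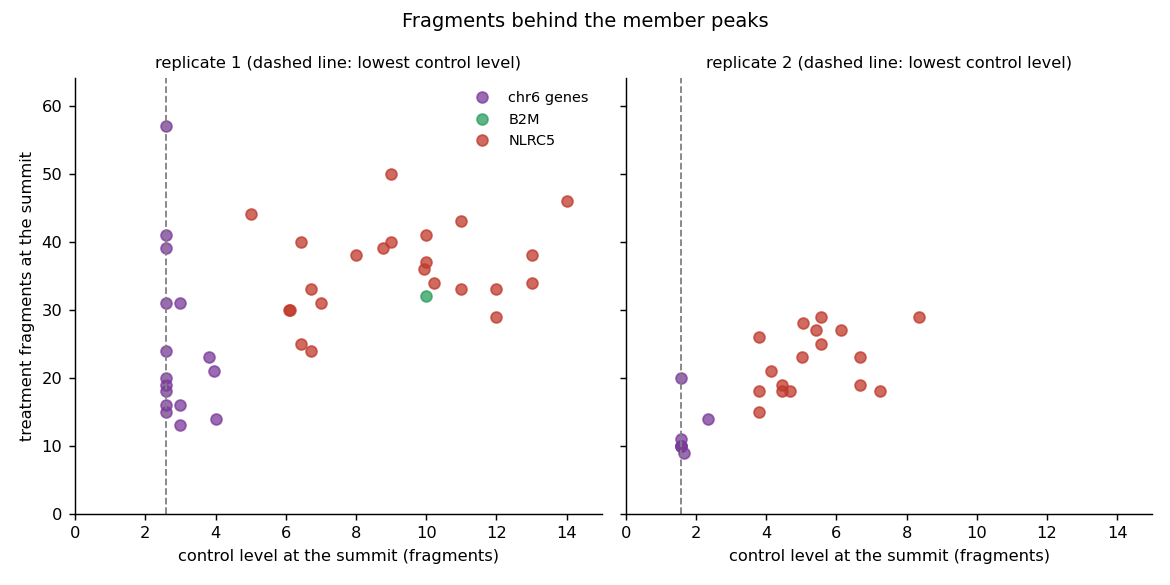
Fragments at the summit against the control level under it, in fragments, for every peak of the 9 genes, with replicate 1 on the left, replicate 2 on the right and the lowest control level of each list as a dashed line (2.58 and 1.59). Peaks of the chr6 genes gather at the dashed line with 9 to 57 fragments, whereas NLRC5 peaks lie at control levels of 3.79 or more.

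The MHC is present several times in hg38, as chr6 and as alternate haplotype sequences, so peaks on the alternates were placed on chr6 by alignment. The number of alternates that held at least 80% of a locus was 4 for HLA-B and TAPBP, 5 for HLA-E and HLA-F, 6 for HLA-C and 7 for TAP1 and TAP2. At TAP1, replicate 1 had 1 promoter-window peak on chr6 and 1 on each of the 7 alternates, with folds of 4.92 to 8.27. Replicate 2 had none on chr6 and 2 on alternates, with folds of 6.95 and 5.99 from 17 and 15 fragments. At TAP2, alternates held 2 promoter-window peaks in replicate 1 (folds 5.73 and 3.63) and 1 in replicate 2 (fold 4.64), while chr6 held none. At HLA-E, they held 2 in replicate 1 (folds 8.78 and 5.32) and none in replicate 2.

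At TAPBP, alternates held 8 promoter-window peaks in replicate 1 and 1 in replicate 2, and 4 and 3 further peaks over the gene body, all at its 3′ end. At HLA-C, they held 1 in each replicate, with folds of 4.25 and 2.99 and summits that lie 3 bp apart on chr6. At HLA-B they held 1 in replicate 1 only, with a fold of 5.18, and at HLA-F none. Counted with the chr6 alternates, 7 of the 9 genes had a promoter-window peak in both replicates, TAP1 and TAP2 being added. B2M is also carried by an alternate sequence, of chr15. There, replicate 1 had a peak with a fold of 3.69 from 35 fragments and replicate 2 one with a fold of 5.89 from 18 fragments, with summits at 179 and -254 bp from the canonical start by a constant shift of coordinates. With B2M counted there too, the number was 8, and HLA-E was the gene left out. The shares of 57.0% of all protein-coding genes and 39.2% of those in the MHC were counted without alternates. They are therefore no background for these counts, and no share with alternates is given.

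**Figure D5:**
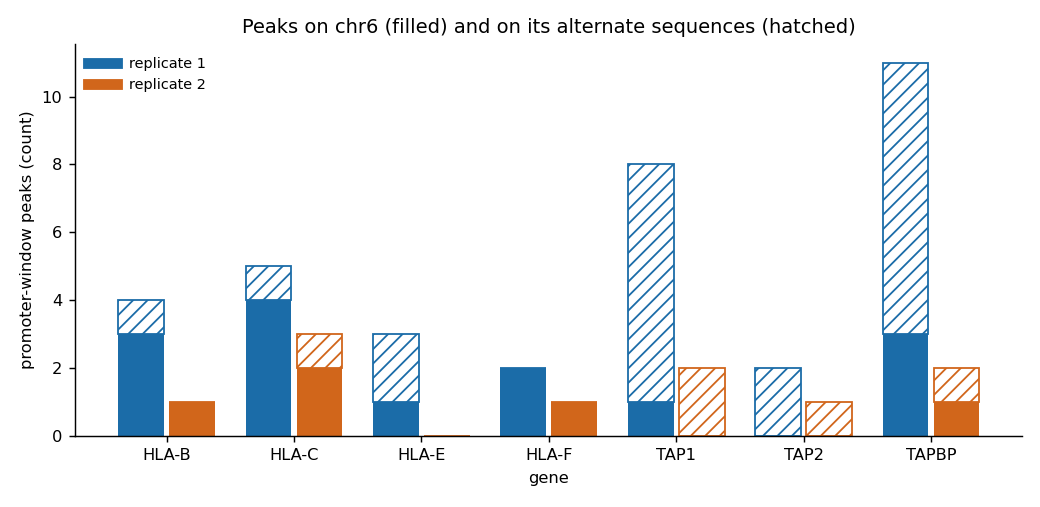
Number of promoter-window peaks of each chr6 gene on chr6 (filled) and on its alternate sequences (hatched), by replicate. TAP1 and TAPBP have more peaks on alternates than on chr6 in replicate 1, 7 against 1 and 8 against 3, and TAP2 has peaks on alternates only.

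How far reads could tell these copies apart was described by words of 31 bases. Every word of the HLA-E and TAP1 peaks, and 98.9% to 100% of the words of each TAPBP peak, also stood on an alternate sequence. The share was 78.9% to 95.1% at HLA-B, 86.7% to 93.4% at HLA-C, 80.8% to 94.5% at HLA-F and 95.7% at B2M. The median word of the TAP1 peaks had 8 copies in hg38, alternates included, and that of the TAPBP peaks 5. By contrast, every word of 39 of the 40 NLRC5 peaks stood once in hg38. Words found at several places of the main chromosomes made up at most 16.3% of a peak at HLA-B, 26.9% at HLA-C, 3.27% at HLA-E and 15.9% at HLA-F, and 0% at B2M, TAP1 and TAPBP. Whether the low control levels and fragment counts of the chr6 genes came from reads divided among copies was not tested.

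Other genes of the pathway were read from fixed lists, on the main chromosomes. Of 10 genes for peptide loading and trimming, 9 had a promoter-window peak in both replicates. CALR, the calreticulin chaperone of the loading complex, was the highest by percentile, with folds of 17.0 and 15.2, and ERAP2, a trimming peptidase, had none. All 7 genes of the immunoproteasome and its activators had one in both, led by PSME2, an activator subunit, at folds of 20.3 and 21.4. PSMB8 and PSMB9 were counted there through the peak past the TAP1 end. Of 14 transcription factor and chromatin regulator genes that act on class I promoters, 10 had one in both and 4 in replicate 1 alone, and the highest was RFXANK, a subunit of the RFX complex on which NLRC5 assembles, at folds of 12.5 and 9.99. Read against the 57.0% of all protein-coding genes, these lists stood at 90%, 100% and 71.4%. The 5 of 9 for the class I genes themselves is not a like count. Of these 9, 7 lie in the MHC, where the share of all protein-coding genes was 39.2%. Counting chr6 alternates added no gene to these lists, whereas the class I count became 7.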

How the data were processed

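NUDT21 CUT&Tag was measured in 2 J.gamma1 replicates. Per the labels and the methods of the study, the authors trimmed reads with fastp, aligned them to hg38 with Bowtie2 2.2.5, removed duplicates with Picard and called peaks with MACS3 3.0.1, separately in each replicate. Each deposited list gives the fold enrichment at the summit (a ratio), its −log10 p and its −log10 q. The deposited score is the −log10 q in whole-number form and entered no result. Bowtie2's setting for reads with several placements and the control library are not given in the sources used here.

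Since MACS derives fold and p from the same pileup and background (with 1 added to each in the fold, and a Poisson model for p), the fragments and the control level at a summit were solved from the pair. Fragments of replicate 1 came out on steps of 0.921, which a control of lower depth gives. Tested on simulated data, 100% of the pileups of 5717 unscaled and 5579 scaled peaks were recovered. Annotation was GENCODE release 44, and main chromosomes were 1 to 22, X and Y. Positions of alternate sequences on chr6 came from minimap2 2.31-r1302. Promoter motifs were searched on both strands of the RefSeq promoters. Tables were made with Python 3.11.15, numpy 2.4.6 and pandas 2.3.3, and Wilson intervals with scipy 1.17.1.

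No test was run, since 2 replicates form 1 group and carry no contrast. Values are given per replicate, and each list was ranked within itself. Named are the 9 genes, neighbours that share a peak with them and, of each pathway list, the gene with the highest mean fold percentile and those without a peak. The genes and lists were chosen with earlier results of these data known. The alternatives tried were 10000 peaks per list by −log10 p, a minimum −log10 q of 5, promoters within 1000 bp, summits in place of edges, canonical starts, alternate sequences, stricter overlap, ranks by −log10 p and each replicate left out.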

Additional observations from a re-analysis of the deposited data

How the results depend on the processing

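The count of class I genes with a promoter-window peak in both replicates was 5, and it was 5 by summits and with touching peaks, 4 by canonical starts and 7 with chr6 alternate sequences. With the chr15 alternate of B2M as well, chosen after seeing the data, it was 8. It fell to 2 at a −log10 q of at least 5 (HLA-F and NLRC5), to 0 with 10000 peaks per list, to 3 within 1000 bp (HLA-C, HLA-F and NLRC5) and to 3 with an overlap of at least 50% of both peaks. Leaving out 1 replicate gave 5 and 8. The share over all protein-coding genes was 57.0%, and was 49.4% with that −log10 q, 53.7% within 1000 bp, 56.0% by summits and 52.3% by canonical starts. It became 24.6% with 10000 peaks per list, 48.0% with the 50% overlap and 57.9% to 69.8% with 1 replicate left out. No such share with alternate sequences is given. The count with a gene-body peak was 2 and fell to 0 at a −log10 q of at least 5. The count with a gene-end summit was 3. Within 500 bp, an alternative chosen after seeing the data, it was 2 (HLA-B and TAPBP), and with 1 replicate left out, also chosen after seeing the data, 3 to 5. The median over the 5 genes of the mean strongest fold was 5.36, and 4.25 to 5.43 with 1 replicate left out. For TAPBP alone the mean was 9.61 and fell to 4.58 by summits. Their median fold percentile was 69.8, and 47.7 when ranked by −log10 p. No paired analysis was possible because the 2 replicates make up a single group. Peaks were the only record of signal used here, so a gene without a peak is one with no call at that depth, and the lists hold no values below their threshold.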

Other observations

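Genes related to class I by protein fold or by function were counted on the main chromosomes. Of 16 class I-like genes, 5 had a promoter-window peak in both replicates (31.2%) and 5 in replicate 1 alone. The highest was MICA, a stress-induced ligand of the receptor NKG2D, with folds of 9.81 and 7.73. HLA-G, HFE, CD1A, CD1C, CD1E and ULBP3 had no peak in either. Of 10 class II genes with their regulator, 2 had one in both replicates. These were HLA-DMA, part of the class II peptide exchanger, at folds of 14.2 and 9.91, and CIITA, the class II transactivator and relative of NLRC5, at 8.11 and 5.15. The other 8, HLA-DRA, HLA-DPA1, HLA-DPB1, HLA-DQA1, HLA-DMB, HLA-DOA, HLA-DOB and CD74, had none there. Most of them lie in the MHC, where 39.2% of protein-coding genes had a promoter-window peak in both replicates. Counted with chr6 alternates, HLA-DOA was added to the class II genes (3 of 10) and MICB to the class I-like genes (6 of 16). The 39.2% was counted without alternates. As a check of the label, 10 of 13 T-lineage markers and 5 of 12 markers of other lineages had a promoter-window peak in both replicates, beside 57.0% of all protein-coding genes. Peaks do not measure expression.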
